A study of Mus musculus with 6 samples.

Results

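The circadian clock genes described here are 10 genes of the transcriptional feedback loop that keeps daily time in mammalian cells: Per1, Per2, Per3, Cry1, Cry2, Arntl (also called Bmal1), Clock, Npas2, Nr1d1 and Dbp. They were taken by gene symbol from a table of 52636 genes, and all 10 were found and passed the filter on low counts. Among 1488 circular RNAs (circRNAs) measured in the same libraries, 5 came from a host gene on this list.

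Tissue was dissected from the primary visual cortex, V1, at postnatal day 28 in C57BL/6J mice of wild-type genotype whose right eyelid had been sutured shut 3 days before. Left V1, contralateral to the sutured eye, was compared with right V1, ipsilateral to it, in the same 3 mice, so that each mouse gave 1 library per hemisphere and all 6 libraries carry the same genotype, age and surgery. The study's title concerns circHomer1 and plasticity driven by visual experience, and the hemispheres are compared after closure of the eye that dominates one side. Contralateral V1 was the left hemisphere in every mouse. A difference between left and right V1 therefore cannot be told apart from one that follows eye closure. The ipsilateral side also receives input from the closed eye and is not an unmanipulated cortex, and neither the mice's sex nor the clock time of dissection is given in the sources used here.

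In the clock loop, CLOCK or its relative NPAS2 pairs with BMAL1 and switches on genes that carry E-box sequences, among them the Per and Cry genes, Nr1d1 and Dbp. The PER and CRY proteins gather in a complex that represses CLOCK and BMAL1, while NR1D1 (REV-ERBα) represses Arntl through RORE sequences. DBP is an output factor that activates genes through D-box sequences, to which the repressor NFIL3 also binds. Per1 and Per2 also respond to CREB and to glucocorticoids, and in the suprachiasmatic nucleus, the brain's central pacemaker, light induces them. In the cortex the same genes cycle locally.

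Short control sequences upstream of members are shown first because the loop is wired through them. The sequences are the 250 bases before a RefSeq transcription start on GRCm38.p6, written 5′ to 3′ on the gene's strand, with capitals marking matches to an E-box (CACGTG), an E′-box (CACGTT), a D-box (TTATGNAA) or a CRE core (TGACG), searched on both strands. The windows are chr11:69098699-69098948 and chr11:69099902-69100151 (plus strand) for 2 starts of Per1, chr10:85185055-85185304 (minus strand) for Cry1, chr11:98775378-98775627 (minus strand) for Nr1d1 and chr4:151044666-151044915 (minus strand) for Per3.
Per1, upstream start: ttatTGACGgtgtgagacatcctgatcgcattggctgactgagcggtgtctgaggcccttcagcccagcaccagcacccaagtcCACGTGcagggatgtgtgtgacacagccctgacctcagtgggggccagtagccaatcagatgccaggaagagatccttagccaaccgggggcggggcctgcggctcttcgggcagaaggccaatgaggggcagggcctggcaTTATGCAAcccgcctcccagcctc
Per1, downstream start: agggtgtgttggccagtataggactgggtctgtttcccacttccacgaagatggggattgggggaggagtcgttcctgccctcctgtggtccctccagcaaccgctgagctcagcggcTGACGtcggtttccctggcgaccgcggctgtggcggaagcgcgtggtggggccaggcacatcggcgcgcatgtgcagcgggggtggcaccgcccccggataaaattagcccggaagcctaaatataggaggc
Cry1: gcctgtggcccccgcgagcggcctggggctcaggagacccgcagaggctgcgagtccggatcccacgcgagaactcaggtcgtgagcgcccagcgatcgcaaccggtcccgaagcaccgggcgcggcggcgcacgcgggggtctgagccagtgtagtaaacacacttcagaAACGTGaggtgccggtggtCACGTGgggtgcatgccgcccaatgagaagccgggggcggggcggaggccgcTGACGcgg
Nr1d1: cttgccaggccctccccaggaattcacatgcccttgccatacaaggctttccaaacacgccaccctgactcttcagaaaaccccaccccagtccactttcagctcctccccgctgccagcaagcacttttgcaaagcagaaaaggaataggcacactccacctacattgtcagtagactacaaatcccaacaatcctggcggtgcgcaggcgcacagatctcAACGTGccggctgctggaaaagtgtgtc
Per3: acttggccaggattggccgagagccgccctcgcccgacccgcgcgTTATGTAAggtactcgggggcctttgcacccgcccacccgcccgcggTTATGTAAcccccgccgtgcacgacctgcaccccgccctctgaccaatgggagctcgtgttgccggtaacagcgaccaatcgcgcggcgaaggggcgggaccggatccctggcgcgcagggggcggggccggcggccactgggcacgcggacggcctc

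Per1 held an E-box that began 166 bases before its upstream start, with a D-box 24 bases before it. Cry1 held an E-box and an E′-box at 60 and 79 bases before the start, Nr1d1 an E′-box at 28 bases, and Per3 a pair of D-boxes at 205 and 158 bases. Cry2, whose window is not printed, held an E′-box at 166 bases. Of 32851 windows of 300 bases (250 before and 50 after a start), 7.15% held an E-box, 4.68% an E′-box and 3.38% a D-box, against 20.8% for the CRE core, which was present in windows of Per1, Cry1 and Cry2. The full CRE (TGACGTCA) was found in 1.79% of windows and in none of the 13 windows of the 9 members that had one. The RORE core (TAGGTCA), held by 2.61% of windows, was found in 1 of the windows of Arntl, 30 bases after the start. The windows of Clock, Npas2 and Dbp held none of these letters. A match is a description of the letters in a window and not of a factor bound there.

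The libraries held 17849253 to 21818822 gene reads in contralateral V1 and 20749614 to 32213500 in ipsilateral V1, and every member had at least 288 reads in each library. Levels are given in CPM, gene reads brought to a common library size with TMM factors. The tissue label fitted the markers of cortical neurons: 5 excitatory neuron markers summed to 4399 to 4881 CPM in contralateral V1 and 3685 to 5032 CPM in ipsilateral V1. The 6 markers of suprachiasmatic nucleus neurons summed to 0.646 to 1.29 CPM in contralateral V1 and 0.250 to 0.820 CPM in ipsilateral V1, with Six6 at 0 in all 6 libraries, so the members' values come from tissue with next to none of these markers. The libraries also fell into 2 sets by the mitochondrial ribosomal RNA mt-Rnr1, with contralateral 1 and ipsilateral 1 and 3 between 14.5 and 35.9 CPM, and contralateral 2 and 3 and ipsilateral 2 between 2243 and 5801 CPM. Mouse 3 thus had its contralateral library in the high set and its ipsilateral library in the low set. A difference within a set therefore partly compares different mice, and mt-Rnr1 and mouse cannot be told apart in it. Members are also given within each set where the difference moved.

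None of the 10 clock genes passed the threshold between hemispheres (edgeR's quasi-likelihood test, Benjamini-Hochberg adjusted p under 0.05), with or without the mouse as a block in the model. Over all 20473 genes tested, 0.127% were called without the block and 0.894% with it. At an unadjusted p under 0.05 there were 3 members without the block and 5 with it, where the shares of all genes were 6.15% and 13.2%, and DESeq2 called 0 members. Within this limit Per1, Per2 and Cry1 had lower values in contralateral V1, Nr1d1 and Dbp had higher means there, and Per3, Cry2, Arntl, Clock and Npas2 had differences nearer 0, so that genes of repressors stood in each of these groups. The median log2 difference over the members was -0.08, against 0.03 over all genes tested.

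**Figure D1:**
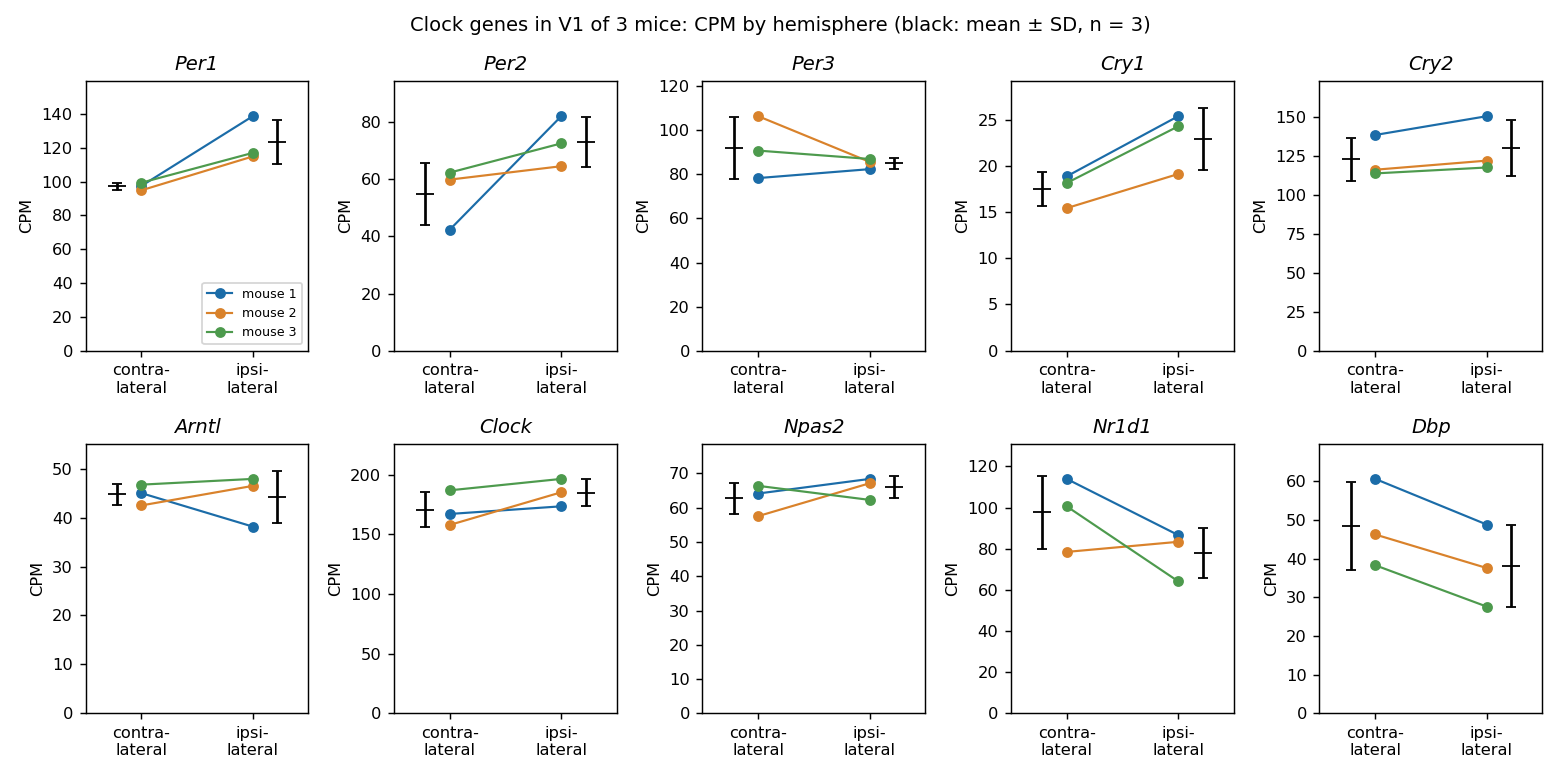
CPM of the 10 clock genes (y axis, starting at 0) in contralateral and ipsilateral V1, with 1 point per library, colours and lines joining the hemispheres of a mouse, and black marks for mean ± SD (n = 3). Per1, Per2 and Cry1 show no overlap between hemispheres, with contralateral points below ipsilateral ones, and Dbp is higher on the contralateral side of all 3 mice.

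The period genes encode the PER proteins, the limiting parts of the repressor complex. Per1 (ENSMUSG00000020893, chr11:69095217-69109960, plus strand, GRCm38) had 97.4, 94.8 and 99.3 CPM in contralateral V1 of mice 1, 2 and 3, against 139, 115 and 117 CPM in ipsilateral V1. All 3 contralateral values lay below all 3 ipsilateral ones, and the contralateral values were nearly level (97.1 ± 2.26 CPM, against 123.5 ± 13.2 CPM in ipsilateral V1, SD, n = 3 each). The difference was -0.35 on the log2 scale (SE 0.12, 95% interval -0.60 to -0.09), or 1.27-fold lower, with an adjusted p of 0.698, and 0.120 in the blocked fit. Among the libraries low in mt-Rnr1 it was -0.40, and among those high in it -0.25. In tissue of mixed cell types, fewer cells of a type and less RNA per cell cannot be told apart.

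Per2 (ENSMUSG00000055866, chr1:91415982-91459324, minus strand) had 42.3, 59.8 and 62.3 CPM in contralateral V1 and 82.0, 64.5 and 72.5 CPM in ipsilateral V1. The groups did not overlap, but the gap within a mouse was uneven: the log2 ratio was -0.95 in mouse 1, -0.11 in mouse 2 and -0.22 in mouse 3. Over all libraries the difference was -0.41 (SE 0.16, interval -0.76 to -0.07, adjusted p = 0.748, and 0.153 with the block). It was -0.88 among the libraries low in mt-Rnr1 and -0.08 among those high in it. With the block and without mouse 3, Per2 passed the threshold at -0.53 (adjusted p = 0.0203), and without contralateral 1 its difference was -0.26, so its size rests on mouse 1.

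Per3 (ENSMUSG00000028957, chr4:151003652-151044665, minus strand), whose loss affects daily rhythms less than that of Per1 or Per2, had 78.3, 106 and 90.8 CPM in contralateral V1 and 82.4, 85.7 and 87.0 CPM in ipsilateral V1. The contralateral values spanned the ipsilateral ones. Its difference was 0.11 (interval -0.17 to 0.39, adjusted p = 0.903), and it turned to -0.12 among the libraries low in mt-Rnr1.

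The cryptochromes are the partners of PER that contact CLOCK and BMAL1. Cry1 (ENSMUSG00000020038, chr10:85131700-85185064, minus strand) was among the lowest members, with 18.9, 15.4 and 18.1 CPM in contralateral V1, against 25.4, 19.1 and 24.3 CPM in ipsilateral V1. The groups did not overlap, although the highest contralateral and the lowest ipsilateral value were close, and the 3 mice had similar log2 ratios of -0.43, -0.31 and -0.42. The difference was -0.39 (SE 0.16, interval -0.73 to -0.05, adjusted p = 0.776, and 0.139 with the block), and it was -0.41 in the low and -0.19 in the high mt-Rnr1 libraries. Cry2 (ENSMUSG00000068742, chr2:92403646-92434043, minus strand) had 138, 116 and 114 CPM in contralateral V1 and 151, 122 and 118 CPM in ipsilateral V1. Each mouse was slightly lower on the contralateral side, the groups overlapped, and the difference was -0.08 (interval -0.38 to 0.21, adjusted p = 0.935).

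The activators showed no difference of this size. Clock (ENSMUSG00000029238, chr5:76209868-76304792, minus strand), a histone acetyltransferase as well as a transcription factor, had 167, 158 and 187 CPM in contralateral V1 and 173, 185 and 196 CPM in ipsilateral V1. All 3 mice were lower on the contralateral side, with a difference of -0.12 (interval -0.38 to 0.14, adjusted p = 0.889). Npas2 (ENSMUSG00000026077, chr1:39193731-39363236, plus strand), which can stand in for Clock in the forebrain, had 64.1, 57.5 and 66.3 CPM in contralateral V1 and 68.4, 67.1 and 62.2 CPM in ipsilateral V1. The groups overlapped, and the difference was -0.07 (interval -0.33 to 0.18, adjusted p = 0.935).

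Arntl (ENSMUSG00000055116, chr7:113207465-113314126, plus strand), the shared partner of CLOCK and NPAS2, had 45.0, 42.5 and 46.7 CPM in contralateral V1 and 38.2, 46.5 and 47.9 CPM in ipsilateral V1. Its difference was 0.02 (interval -0.26 to 0.30, adjusted p = 0.989), and the sign changed between scalings, since it was -0.003 with DESeq2-type size factors. The intervals of Clock, Npas2 and Arntl all include 0, which does not show that the hemispheres were alike.

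Nr1d1 and Dbp are direct targets of CLOCK and BMAL1. Nr1d1 (ENSMUSG00000020889, chr11:98767932-98775333, minus strand), the nuclear receptor that represses Arntl, had 114, 78.5 and 101 CPM in contralateral V1, against 86.6, 83.4 and 64.2 CPM in ipsilateral V1. Mice 1 and 3 were higher on the contralateral side (log2 ratios 0.40 and 0.65) and mouse 2 was not (-0.09), and the groups overlapped. The difference was 0.32 (SE 0.16, interval -0.02 to 0.67, adjusted p = 0.810, and 0.235 with the block). With the block and without mouse 2, Nr1d1 passed the threshold at 0.52 (adjusted p = 0.0105), and the difference was 0.59 in the low and 0.10 in the high mt-Rnr1 libraries. Nr1d1 shares 263 of its 3077 exonic bases with Thra on the opposite strand, whose own difference was 0.14 (adjusted p = 0.897), and the strand setting of the counts is not given in the sources used here.

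Dbp (ENSMUSG00000059824, chr7:45705088-45710203, plus strand) had 60.6, 46.2 and 38.3 CPM in contralateral V1 and 48.8, 37.6 and 27.6 CPM in ipsilateral V1. It was the one member higher on the contralateral side in all 3 mice, with log2 ratios of 0.31, 0.30 and 0.47, while the levels of the hemispheres overlapped because the mice differed. The difference was 0.35 (SE 0.21, interval -0.10 to 0.80, adjusted p = 0.830) without the block and 0.36 (SE 0.10, interval 0.16 to 0.56, adjusted p = 0.0998) with it, the smallest adjusted p of any member in the blocked fit. It was 0.66 in the low and 0.16 in the high mt-Rnr1 libraries, sets that also differ in their mice. Leaving out contralateral 1 or ipsilateral 3 gave 0.15 or 0.16. Dbp shares 539 of its 2993 exonic bases with Sphk2 on the opposite strand, whose difference was 0.03.

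Counted over the members, 3 had no overlap between hemispheres and were lower (Per1, Per2 and Cry1), and 0 had no overlap and were higher, where 6.29% and 6.7% of all tested genes did. Lower in all 3 mice were 5 of 10 members (Per1, Per2, Cry1, Cry2 and Clock), and 1 of 10 (Dbp) was higher in all 3, against 17.3% and 19.2% of all genes, so that 6 of 10 members held 1 direction in every mouse where 36.5% of all genes did. The Per and Cry repressor genes other than Per3 make up 4 of those 5, a grouping made after the values were seen. Per3 and Nr1d1, which also encodes a repressor, were each higher on the contralateral side in 2 mice. Cry2, at a difference of -0.08, turned to 0.0365 in the low mt-Rnr1 libraries.

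**Figure D2:**
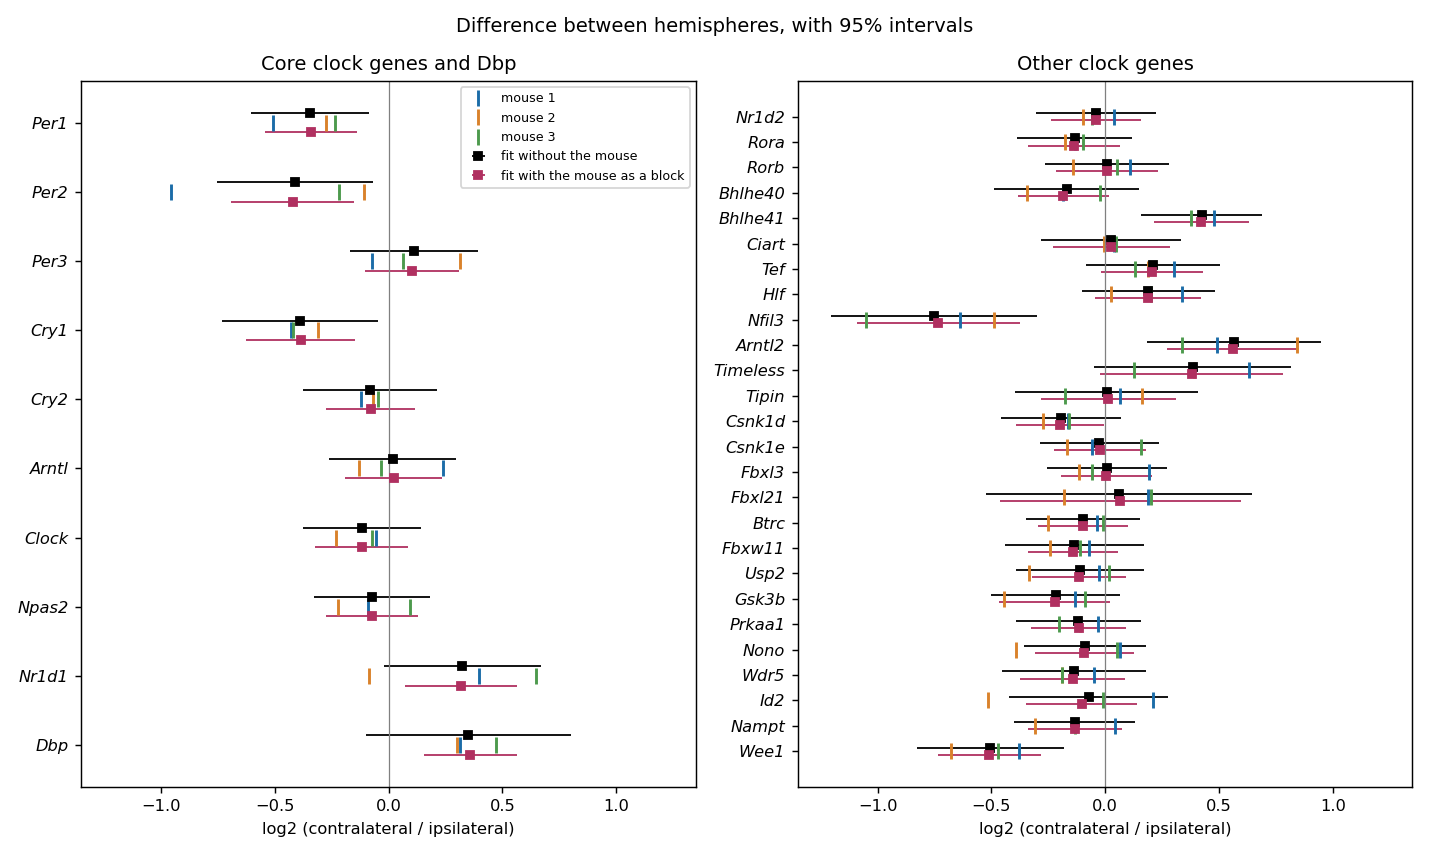
Log2 difference between contralateral and ipsilateral V1 (x axis) for the 10 members (left) and other clock genes (right), with squares for the fit without the mouse (black) and with the mouse as a block (red), 95% intervals as bars and ticks for the ratio in each mouse. Intervals of the blocked fit lie below 0 for Per1, Per2 and Cry1 and above 0 for Nr1d1 and Dbp. None of these passed after adjustment over all genes, and the intervals use a spread pooled with that of other genes.

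The mice differed from each other in 1 member. Dbp averaged 54.7 CPM in mouse 1, 41.9 CPM in mouse 2 and 32.9 CPM in mouse 3 over both hemispheres, 1.66-fold between the highest and the lowest mouse, and it passed edgeR's quasi-likelihood F test among mice with hemisphere in the model (adjusted p = 0.00309). Of all genes, 6.41% passed that test, so 1 member of 10 is near the background. The result rests on contralateral 1 and on the model: the adjusted p was 0.0621 without contralateral 1, and it was 0.124 when hemisphere was left out of the model. Sphk2, which shares exonic bases with Dbp on the opposite strand, was also highest in mouse 1. In mice 1, 2 and 3 it had 25.2, 15.2 and 13.1 CPM in contralateral V1 and 20.7, 16.4 and 15.3 CPM in ipsilateral V1. The part of Sphk2 reads in the Dbp counts was not tested. The other members differed at most 1.28-fold between mice (Cry1, adjusted p = 0.241), with Cry2 at 0.151 and Nr1d1 at 0.313. Without ipsilateral 2, the deepest library, Per3, Cry2, Nr1d1 and Dbp passed, as did 4425 genes, and without contralateral 2 Cry2 and Dbp passed. A mouse's value joins the animal, its dissection and its library preparation, which cannot be told apart here.

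Levels between members are compared here per length of exon, summed over all annotated exons of a gene. Which of its transcripts were expressed was not examined, so the order depends on the annotation. On that scale Nr1d1 was the highest member, at a mean of 28.6 CPM per kb over 6 libraries (range 20.9 to 37.0), followed by Cry2 at 20.0 (18.01 to 23.8), Per1 at 19.6 (16.8 to 24.6) and Dbp at 14.4 (9.22 to 20.2). Npas2 at 13.4 (12.01 to 14.3), Clock at 12.95 (11.5 to 14.3), Per2 at 10.9 (7.22 to 14.002) and Per3 at 9.20 (8.15 to 11.1) came next, and Cry1 at 6.05 (4.62 to 7.59) and Arntl at 5.91 (5.07 to 6.37) were lowest. The ranges of neighbours in this order overlapped except between Per3 and Cry1. Npas2 and Clock, which can both pair with BMAL1, stood at similar levels on this scale, and both were above Arntl in every library. The similarity rests on exon lengths of 4791 bases for Npas2 and 13727 for Clock. In CPM, Clock was higher than Npas2 in every library (158 to 196 against 57.5 to 68.4).

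**Figure D3:**
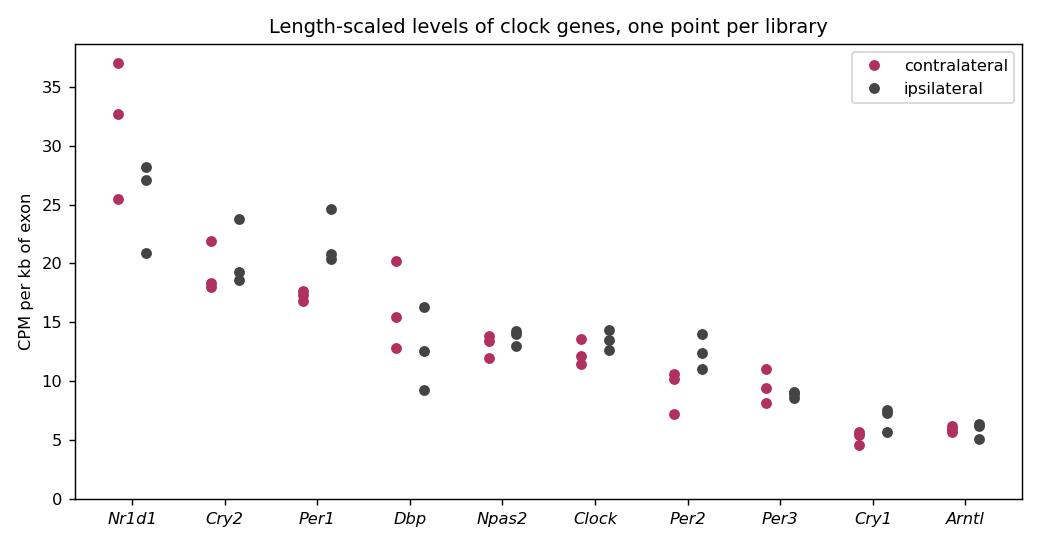
Levels per kb of exon (CPM per kb, y axis from 0) for the 10 members in order of their mean, with 1 point per library, contralateral points left of ipsilateral ones. Nr1d1 has the highest mean (28.6) and the widest range, and Cry1 and Arntl have the lowest means (6.05 and 5.91).

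Of 27 other clock genes, chosen with earlier results of these data known, all were tested, 0 passed without the block, and with the block 2 were lower and 0 higher, where 0.698% and 0.195% of all genes were. Their median difference was -0.07. Wee1, a kinase that delays entry into mitosis and a known clock target, had 23.2, 20.4 and 27.1 CPM in contralateral V1, against 30.2, 32.6 and 37.5 CPM in ipsilateral V1, without overlap. It fell by 0.51 on the log2 scale in the blocked fit (SE 0.11, adjusted p = 0.0277, and 0.557 without the block), and it did not pass with the block once mouse 2 was left out. Nfil3, the repressor that competes with DBP at D-boxes, had 5.62, 5.84 and 6.19 CPM in contralateral V1, against 8.74, 8.20 and 12.8 CPM in ipsilateral V1, also without overlap. It fell by 0.73 in the blocked fit (SE 0.17, adjusted p = 0.0494, and 0.511 without the block), and it did not pass with the block once mouse 3 was left out. Its difference was -0.95 in the low and -0.45 in the high mt-Rnr1 libraries.

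The other clock genes with the smallest p in the blocked fit did not pass with all libraries in the model. Bhlhe41 (DEC2), an E-box repressor, had 41.6, 37.2 and 37.7 CPM in contralateral V1 and 29.9, 27.96 and 29.1 CPM in ipsilateral V1, without overlap (difference 0.42, SE 0.12, adjusted p = 0.548, and 0.0519 with the block). It shares 1280 of its 6720 exonic bases with Gm43909, a transcript on the opposite strand of at most 2.52 CPM. Arntl2, a paralog of Arntl, had 14.2, 20.1 and 15.4 CPM in contralateral V1 and 10.1, 11.2 and 12.2 CPM in ipsilateral V1, again without overlap (0.57, SE 0.18, adjusted p = 0.608, and 0.0698 with the block). With the block and without mouse 3, Arntl2 passed at 0.67 (adjusted p = 0.0312). Timeless had a difference of 0.38 (adjusted p = 0.404 with the block), and Csnk1d, a kinase that marks PER proteins for turnover, one of -0.20 (0.364 with the block).

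The D-box factors can be set side by side. Dbp and its relatives Tef and Hlf, which were named after their values were seen, had higher values on the contralateral side in all 3 mice. Nfil3 had lower values in all 3. Of the 27 other clock genes, 10 were lower and 5 higher in all 3 mice, against 17.3% and 19.2% of all genes tested. Tef had 450, 352 and 371 CPM in contralateral V1 and 365, 309 and 339 CPM in ipsilateral V1 (difference 0.21, adjusted p = 0.840, and 0.419 with the block). Hlf had 422, 370 and 463 CPM in contralateral V1 and 334, 363 and 403 CPM in ipsilateral V1 (0.19, adjusted p = 0.848, and 0.489 with the block). The hemispheres overlapped for both, and of these 4 factors Nfil3 passed, in the blocked fit.

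**Figure D4:**
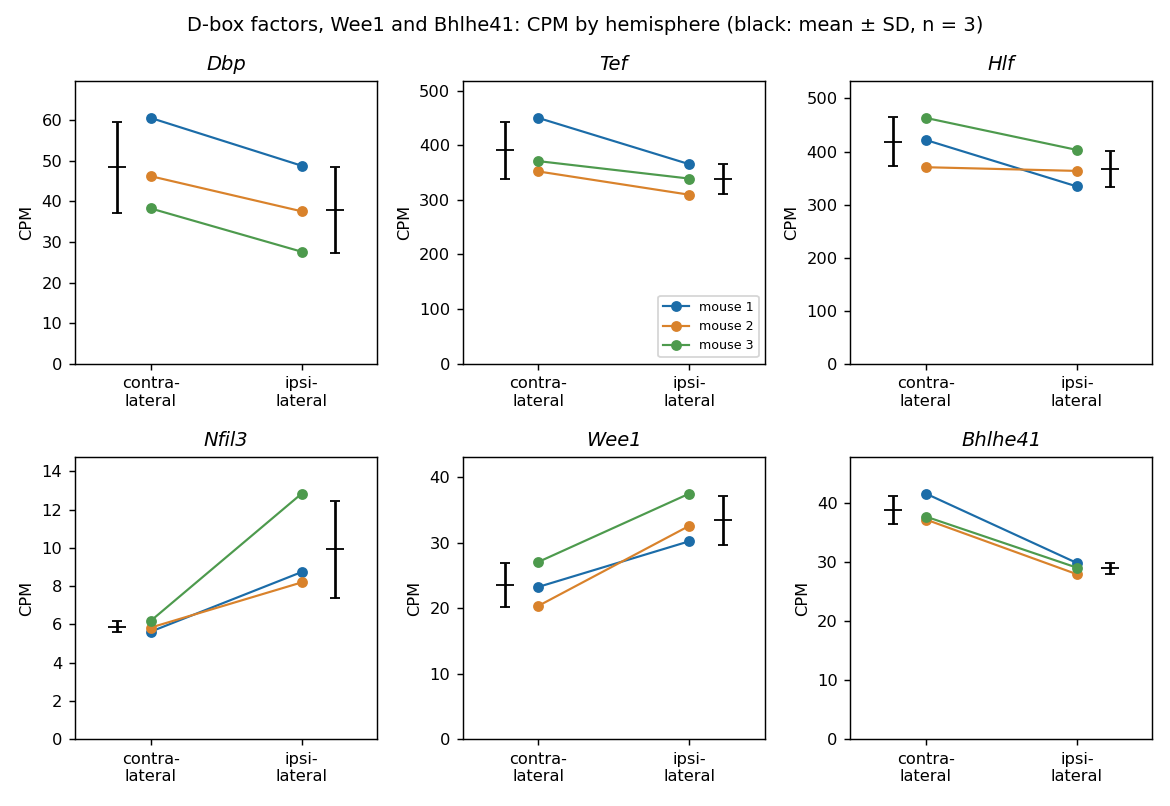
CPM (y axis, starting at 0) of the activating D-box factors Dbp, Tef and Hlf, the D-box repressor Nfil3, and Wee1 and Bhlhe41 in contralateral and ipsilateral V1, with 1 point per library, lines joining the hemispheres of a mouse and black marks for mean ± SD (n = 3). Nfil3 and Wee1 are lower and Bhlhe41 higher in contralateral V1 with no overlap between hemispheres.

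CREB, to which Per1 and Per2 respond, also acts on genes that neuronal activity induces. Of 14 activity-induced genes, 9 passed without the block and 12 with it, all lower in contralateral V1, with a median difference of -1.26. Of all genes tested, 0.127% and 0.698% passed as lower in those fits. Fos, an AP-1 subunit, had 7.57, 8.68 and 14.2 CPM in contralateral V1, against 37.3, 39.3 and 46.7 CPM in ipsilateral V1 (difference -2.02, SE 0.21, adjusted p = 0.00263). Nr4a1, an orphan nuclear receptor, Junb, another AP-1 subunit, and Bdnf, a neurotrophin, had differences of -1.71, -1.27 and -1.52 and passed as well. Without contralateral 2, no gene in the table passed, while the differences of Fos, Nr4a1, Junb and Bdnf were then -1.92, -1.72, -1.21 and -1.47. Npas4, an activity-induced factor of the same bHLH-PAS protein family as CLOCK, NPAS2 and BMAL1, had 7.81, 6.85 and 17.3 CPM in contralateral V1, against 13.5, 22.5 and 40.4 CPM in ipsilateral V1 (difference -1.26, adjusted p = 0.587, and 0.000171 with the block). The differences of Per1, Per2 and Cry1, from -0.35 to -0.41 had the same sign and were smaller than that median, and none of them passed. Crem, a CREB relative in the same list, had a difference of -0.37 and did not pass in either fit (adjusted p = 0.776, and 0.209 with the block), and neither did Gem.

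Interneuron markers were lower in contralateral V1 as a sum, although Sst was higher there in mouse 3 (21.7 against 16.7 CPM). The 6 markers summed to 279 to 337 CPM in contralateral V1 and 413 to 490 CPM in ipsilateral V1. Without the block 0 of 6 passed, and with it 3 of 6 (Gad1, Gad2 and Vip), all lower. Of all genes tested, 0.127% and 0.698% passed as lower in those fits. The part of the interneuron markers in the values of Per1, Per2 and Cry1 was not tested. The summed markers of excitatory neurons, astrocytes, oligodendrocytes, microglia and vascular cells overlapped between hemispheres. Within mice, the 6 oligodendrocyte markers summed to 4389, 5705 and 3358 CPM in contralateral V1 and 4676, 5812 and 4898 CPM in ipsilateral V1, lower on the contralateral side each time. Of those 6 markers 5 were lower in all 3 mice, where 17.3% of all genes tested were. In either fit 0 of these 6 passed, and their median difference was -0.23. Tbr1, a transcription factor of excitatory neurons, was lower without overlap (-0.33, adjusted p = 0.748, and 0.153 with the block). The part of these markers in the members' values was not tested either.

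The genes whose levels followed a member most closely were found by Pearson's r of log2(CPM + 1) over 6 libraries, among 12102 other genes with a mean of at least 5 CPM, for the 3 members with the smallest p in the blocked fit. For Dbp they were Osbpl5 (r = 0.996), Zfp516 (0.993) and Zfp423 (0.993), for Per1 Sowahb (0.993), Dnajb5 (0.991) and Numb (0.990), and for Cry1 Glrx3 (0.996), Lamtor5 (0.990) and Hs3st4 (0.990). With 6 points that share their libraries, 596 genes had an r above 0.9 with Dbp, 150 with Per1 and 143 with Cry1, so the top ranks are a description only. Sowahb, the closest to Per1, had 17.2, 16.5 and 18.6 CPM in contralateral V1 and 37.5, 27.2 and 25.5 CPM in ipsilateral V1, without overlap.

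CircRNAs form when a downstream splice donor joins an upstream acceptor, and they are counted by reads across that back-splice junction. The 5 circRNAs of clock genes, from Npas2 (3 circRNAs), Cry1 and Clock, held 202 reads, or 0.185% of all back-splice reads. Per1, Per2, Per3, Cry2, Arntl, Nr1d1 and Dbp hosted none in the table, which lists only circRNAs with at least 1 read in every library. The junctions below were built from GENCODE M21 exons on GRCm38, with 15 bases of the last exon in lower case and 15 bases of the first exon in capitals, to show what distinguishes each circle from its linear RNA.
Npas2 exons 2 to 5, chr1:39263319-39300733 (plus strand): cttggacatttaccgCAGGCAAGACTGCAT
Npas2 exons 2 to 7, chr1:39263319-39313068 (plus strand): gctcttacaacaatgCAGGCAAGACTGCAT
Npas2 exons 3 to 5, chr1:39287468-39300733 (plus strand): cttggacatttaccgAGCCTCTCGAAATAA
Cry1 exons 2 to 10, chr10:85143016-85157194 (minus strand): gctgtagcggtggaaATTTTTGCTTCAGTG
Clock exons 3 to 7, chr5:76262675-76274043 (minus strand): cagttaatgttagagAGTTCTGATGGTCAG

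The Npas2 circles share ends: exons 2 to 5 and 2 to 7 begin at the same acceptor, and exons 2 to 5 and 3 to 5 end at the same donor. If only annotated exons are kept, the circles would be 388, 623 and 331 bases for Npas2, 1487 bases for Cry1 and 476 bases for Clock. The Cry1 circle would hold 81.8% of the coding sequence without the start codon, whereas the circles of Npas2 exons 2 to 5 and 2 to 7 and that of Clock hold the start codon with 14.8%, 24.4% and 13.6% of the coding sequence.

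The circle of Npas2 exons 2 to 5 was the most abundant, with 4, 21 and 15 back-splice reads in contralateral V1 and 15, 22 and 26 in ipsilateral V1. These counts are not scaled for depth: per 1000 gene reads of Npas2 the circle had 3.11, 19.6 and 10.4 reads in contralateral V1 and 10.96, 10.6 and 17.1 in ipsilateral V1, so that mice 1 and 3 were lower on the contralateral side and mouse 2 was higher. The groups overlapped, and the difference was -0.52 on the log2 scale (SE 0.46, interval -1.42 to 0.39). Npas2 exons 2 to 7 had 1, 3 and 9 reads in contralateral V1 and 3, 8 and 6 in ipsilateral V1, and exons 3 to 5 had 1, 1 and 4 reads in contralateral V1 and 4, 3 and 2 in ipsilateral V1. The Clock circle had 4, 2 and 7 reads in contralateral V1 and 4, 17 and 8 in ipsilateral V1 (difference -0.87, SE 0.70), and that of Cry1 had 1, 2 and 1 in contralateral V1 and 2, 1 and 5 in ipsilateral V1. None of the 5 passed edgeR's quasi-likelihood test (adjusted p = 0.999 for each, and 0.993 with the block), and of 1468 circRNAs tested 0% were called and 3.54% had an unadjusted p under 0.05, or 4.5% with the block. At this depth, differences of the size seen in the linear RNAs of Per1 or Cry1 were not detectable in these circles.

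**Figure D5:**
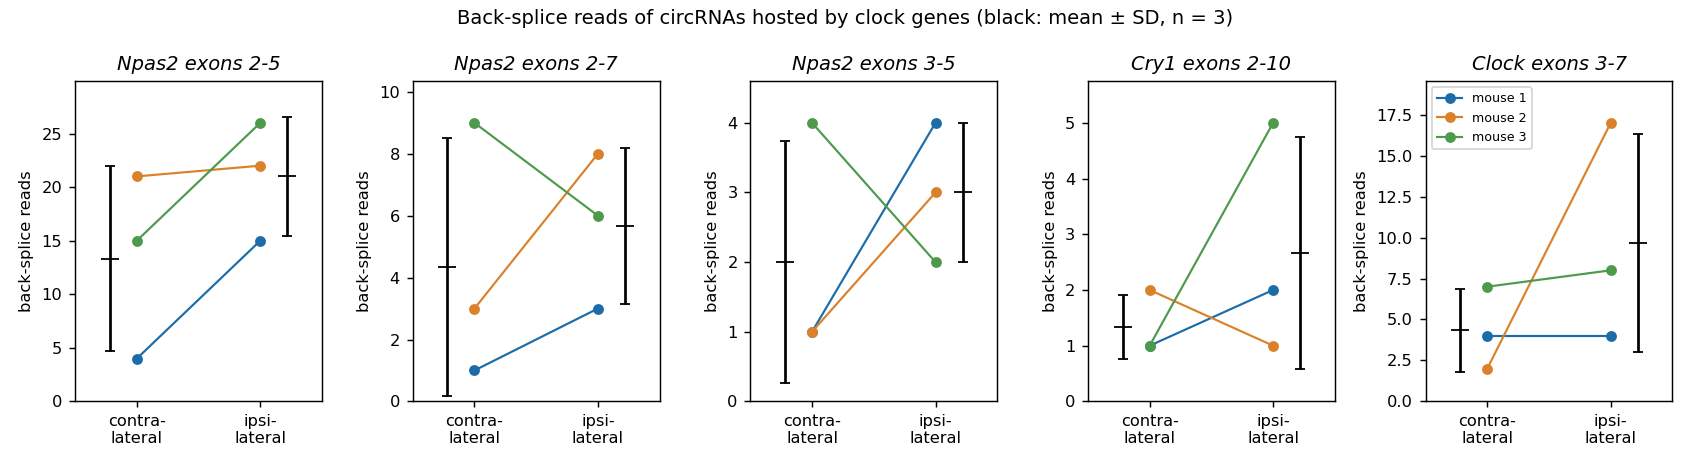
Back-splice reads (y axis, raw counts from 0, not scaled for depth) of the 5 circRNAs hosted by Npas2, Cry1 and Clock in contralateral and ipsilateral V1, with 1 point per library, lines joining the hemispheres of a mouse and black marks for mean ± SD of the counts (n = 3). Counts run from 1 to 26 reads and overlap between hemispheres for each circle.

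Per 1000 gene reads of Npas2, the summed reads of its 3 circles were 4.66, 23.3 and 19.5 in contralateral V1 of mice 1, 2 and 3, against 16.1, 15.9 and 22.4 in ipsilateral V1. Contralateral 1 stood below the other 5 libraries, with 6 reads over the 3 circles. Without that library the circle of Npas2 exons 2 to 7 had a difference of 0.17, against -0.21 with it.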

How the data were processed

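Libraries were made from total RNA with a strand-preserving SMARTer kit, per the labels' protocols. Gene values are the authors' raw counts by Ensembl gene, laid out as featureCounts writes them, and circRNA values are raw counts of back-splice reads, per the file headers. The authors' normalized circRNA signal values equalled the quantile-normalized counts in all 1488 rows and served as an alternative. HISAT2, featureCounts, limma, DESeq2 and the build GRCm38 are named in the submitters' processing notes. Not given in the sources used here are the circRNA caller, the strand setting and the annotation release. Symbols came from GENCODE M21 (52489 of 52636 IDs), promoter windows from RefSeq (GRCm38.p6). Columns of other series numbered 0.

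Hemispheres were compared with edgeR 4.0.16 (R 4.3.3): TMM scaling, filterByExpr (minimum count 10, total 15), quasi-likelihood tests, Benjamini-Hochberg adjustment over 20473 genes, threshold 0.05. Mouse differences were tested with hemisphere in the model. CircRNAs needed 2 reads in 3 libraries (1468 tested), with TMM on back-splice counts, of which libraries held 13428 to 26867. Scripts were tested on simulated data. Alternatives used limma 3.58.1, DESeq2 1.42.0, other scalings, filters and left-out libraries. Molecular identifiers were not used, and intervals therefore do not separate amplification from sampling.

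The labels put both libraries of a number in 1 mouse, so the mouse was fitted as a block beside the fit without it. Same-mouse correlations of deviations from the group means were 0.431, 0.0775 and 0.172 for mice 1, 2 and 3, where the highest with another mouse were -0.188, 0.177 and 0.177, so the pairing rests on the labels. Correlations of log2 CPM between libraries lay between 0.976 and 0.988, and no library was a duplicate. The mice are separate animals. Without the block, p-values start from the spread between the 3 libraries of a hemisphere, each from another mouse. With the block, they start from the spread of the difference between hemispheres over 3 mice. The test among mice sets mouse differences against the scatter between hemispheres within a mouse, and not against a spread between animals. In each test edgeR's quasi-likelihood fit pools a gene's spread with that of other genes. SEs, intervals and p-values therefore do not reflect the gene's own 3 mice alone. Per2, for example, had a blocked SE of 0.13 with log2 ratios of -0.95, -0.11 and -0.22 in mice 1, 2 and 3.

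The members and gene lists were chosen with earlier results of these data known. Named were all members and their circRNAs, the 6 other clock genes with the smallest p in the blocked fit, the 4 genes of each further list with the smallest p in the fit without the block, and 3 genes most like each of 3 members. The alternatives that leave out a mouse in the blocked fit, and the naming of Tef, Hlf, Npas4, Crem, Gem, Tbr1, Fkbp5, Tsc22d3, Mt1 and Ddit4, were chosen after the data were seen. The plot of differences leaves out 1 of the other clock genes, which is not reported here.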

Additional observations from a re-analysis of the deposited data

How the results depend on the processing

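Of all genes, 26 passed between hemispheres, against 89 with DESeq2, 109 with no filter on low counts, 183 with the mouse as a replicate block, 205 with the block and RLE scaling, and 250, 174 and 269 with the block and without mouse 1, 2 or 3. Leaving out 1 library gave 0 to 35 genes, with 0 without contralateral 2, where edgeR had 833 genes at an unadjusted p under 0.05, and 17 and 16 without contralateral 3 and ipsilateral 2. Clock members past the threshold numbered 0 in every alternative but the block without mouse 2 (1, Nr1d1) and without mouse 3 (1, Per2). Among mice, 1313 genes and 1 member passed, against 220 to 4425 genes and 0 to 4 members with 1 library left out, and 264 genes and 0 members with hemisphere left out of the model. CircRNAs past the threshold numbered 0 to 2 with 1 library left out, the 2 without ipsilateral 2. The causes were not tested. Within each mt-Rnr1 set 1 hemisphere has a lone library, which is assumed to vary like the others. Each set also holds 1 library of mouse 3 without its partner, so differences within a set join hemisphere and mouse.

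Per1, Per2, Cry1, Clock, Nr1d1 and Dbp kept their sign in all 16 alternatives, with ranges of -0.40 to -0.25, -0.88 to -0.08, -0.51 to -0.19, -0.20 to -0.06, 0.10 to 0.59 and 0.15 to 0.66. Arntl turned to -0.00255 with RLE scaling, -0.00267 with DESeq2, -0.0174 without contralateral 3, -0.118 without ipsilateral 1, -0.062 in the high mt-Rnr1 libraries and -0.12 with the block and without mouse 1. With 1 library left out, Arntl was 0.07 at the highest (without ipsilateral 3) and Per3 0.209 (without contralateral 1). Per3 turned to -0.00826 without contralateral 2, -0.123 in the low mt-Rnr1 libraries and -0.00467 with the block and without mouse 2. Cry2 turned to 0.0365 in the low mt-Rnr1 libraries, and Npas2 to 0.000282 with the block and without mouse 2. The Npas2 circle of exons 2 to 7 turned to 0.168 without contralateral 1 and 0.00451 without contralateral 2, and that of exons 3 to 5 to 0.0912 without ipsilateral 1, where without contralateral 3 they were at -1.1 and -1.16. The Cry1 circle gave values in 8 of 11 alternatives, since it failed the filter on low counts in the others. Beyond Wee1 and Nfil3, the block changed no call among the named clock genes.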

Other observations

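Per1 is also induced by glucocorticoids through its own response element, so a list of glucocorticoid-induced genes was examined. Of its 16 genes 15 were tested, and their median difference was 0.03, equal to that of all genes tested to the digits given. Cdkn1a, a cell cycle inhibitor that p53 also induces, was the only gene of the list that passed, with or without the mouse as a block, at 3.48, 3.32 and 4.57 CPM in contralateral V1, against 13.3, 11.2 and 8.69 CPM in ipsilateral V1 (log2 difference -1.54, SE 0.22, edgeR's quasi-likelihood test, adjusted p = 0.0180). Fkbp5 and Tsc22d3, known targets of the receptor that were named after their values were seen, had differences of 0.03 and 0.02. The part of glucocorticoids in the values of this list or of Per1 was not tested. Zbtb16, a zinc finger transcription factor, had 73.8, 71.7 and 77.1 CPM in contralateral V1, against 122, 95.3 and 86.1 CPM in ipsilateral V1, without overlap (-0.45, adjusted p = 0.610, and 0.0698 in the fit blocked by mouse). Klf9, a Krüppel-like factor, and Errfi1, a feedback inhibitor of the EGF receptor, had differences of -0.33 (adjusted p = 0.156 with the block) and -0.27 (0.331 with the block). Against 17.3% and 19.2% of all genes tested, 5 of the 15 genes were lower and 5 higher in all 3 mice. Among the higher ones, named after their values were seen, Mt1, a metallothionein, had 71.8, 87.5 and 75.8 CPM in contralateral V1 and 67.9, 78.6 and 33.1 CPM in ipsilateral V1 (0.39, adjusted p = 0.830, and 0.187 with the block), and Ddit4, an inhibitor of mTOR signalling, had a difference of 0.33 (adjusted p = 0.336 with the block).

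Of the 27 other clock genes, 1 hosted a circRNA in the table. The circle of Hlf, at chr11:90340787-90345978 on the minus strand of GRCm38, had 15 reads in all 6 libraries together, and its difference was 0.35 with an interval of -0.98 to 1.68.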
